A study of Mus musculus with 4 samples.

Results

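The genes described here encode the ligands, receptors and regulators of Wnt signalling, measured in the hippocampus of mice that drank fluoxetine. They were chosen by gene symbol alone: every probeset whose single platform symbol begins with Wnt, Fzd, Dkk, Sfrp, Axin or Dvl and a number, or with Tcf7, or is Lrp5, Lrp6, Ctnnb1, Lef1, Gsk3b, Apc, Frzb or Wif1. This gave 111 probesets of 53 genes, out of 45037 probesets on the array that are not Affymetrix controls. Of these genes, 52 encode proteins, and the other, Fzd10os, is named as a transcript opposite Fzd10. The Tcf7 gene itself was not analysed here.

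The fluoxetine group was male DBA/2J mice, an inbred strain, given 18 mg/kg per day of fluoxetine, a serotonin reuptake inhibitor used as an antidepressant, in the drinking water for 21 days. The control group was male DBA/2J mice on untreated water, a dose of 0. The labels give an age of 8 to 10 weeks for both groups. RNA of both hippocampi was pooled from 6 mice at a time, which gave 2 fluoxetine pools and 2 control pools from 12 mice per group, and each pool was read on 1 Affymetrix Mouse Genome 430 2.0 array. A pool averages its mice, so the spread between pools is that of pools and not of single animals, and in such tissue RNA fewer cells of a type and less RNA per cell cannot be told apart.

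Wnt proteins are secreted lipid-modified signals that bind Frizzled receptors together with the co-receptors Lrp5 or Lrp6. In the canonical branch, binding recruits Dishevelled, disables the complex of Axin, Apc and Gsk3b that marks beta-catenin for destruction, and lets beta-catenin enter the nucleus and act with the DNA-binding proteins of the Tcf and Lef family. Secreted antagonists hold the pathway back outside the cell: Sfrp proteins and Frzb share the Wnt-binding domain of the Frizzled receptors, Wif1 binds Wnt proteins through a domain of its own, and Dkk1 blocks the co-receptors. In the adult hippocampus the pathway is known for its part in the birth and maturation of dentate granule neurons and in synapse assembly.

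Median intensity over all non-control probesets lay between 22.5 and 23.2 in the 4 arrays, and 16612 to 16866 probesets per array reached 100, the minimum the submitters used for expression. The 18 hybridisation spike-in probesets, RNA added in fixed amount, each read higher in the 2 fluoxetine arrays than in either control array, by a median log2 difference of 0.36, while the median over tested probesets was -0.04. All 4 general markers of hippocampal neurons on the list (Neurod6, Camk2a, Snap25, Slc17a7) and 8 of 9 dentate granule markers reached the minimum in at least 2 arrays. Among markers of other cells, all 7 tested microglia genes were higher in fluoxetine pools and 3 of them passed the test described next, and 5 of 6 tested endothelial and mural genes were higher and 2 passed. Of 8 astrocyte genes 5 were higher and 2 passed, Gfap at a log2 difference of 2.78 (adjusted p = 0.0172) and Aqp4 at 1.07 (adjusted p = 0.0262). Of 5 tested meninges and fibroblast genes 4 were higher, and the collagen gene Col3a1, tested only through its fluoxetine values, passed, at least 2.31-fold higher against 100 (adjusted p = 0.00934). The part of the spike-in shift and of these markers in the values that follow was not tested.

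Most Wnt pathway probesets gave little signal in this tissue. A probeset was tested if at least 2 of the 4 arrays reached 100, and 25 of the 111 members did (22.5%), against 37.6% of all probesets. These 25 represent 14 of the 53 genes (26.4%), while 49.6% of all genes on the array had a tested probeset. The cytoplasmic components were tested most often, with 15 of 22 probesets covering 6 of 8 genes. Of the ligands 2 of 32 probesets were tested, of the secreted antagonists 4 of 18, of the receptors 4 of 31, and of the nuclear factors 0 of 8. At the other end, 51 of the 111 probesets stayed under 10 in all 4 arrays, and for 20 genes every probeset did. Such low values were common on the array and not particular to the members. The Wnt6 probeset 1435980_x_at, with means of 10.1 in fluoxetine and 10.0 in control pools, stood at percentile 42.2 of all non-control probesets by mean log2 level.

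**Figure D1:**
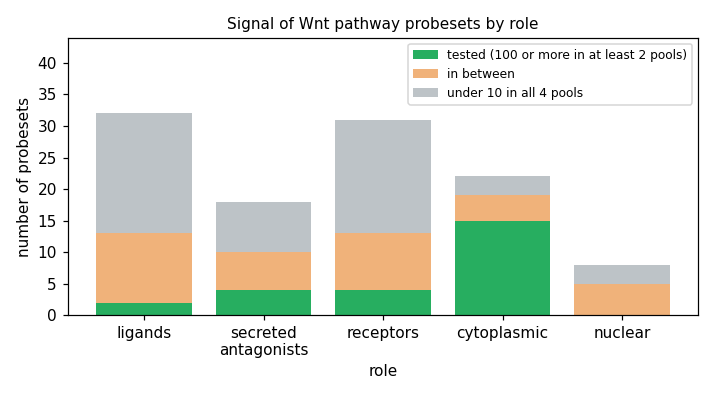
Number of member probesets (vertical axis) in each of the 5 roles, split into those tested, those under 10 in all 4 pools and those in between. Cytoplasmic components have 15 tested probesets of 22, the 32 ligand probesets only 2, and the nuclear factors none.

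No tested member passed the comparison of fluoxetine with control pools. By limma's moderated test, adjusted by Benjamini-Hochberg across the 16938 tested probesets, 0 of the 25 members had an adjusted p under 0.05, where 1.72% of all tested probesets did (291). Of all tested probesets 1.03% (175) were called higher and 0.685% (116) lower in fluoxetine pools. The lowest adjusted p among the members was 0.140. At an unadjusted p under 0.05 there were 5 members (20%), namely both probesets of Frzb and 1 each of Dkk3, Lrp6 and Ctnnb1, against 22.5% of all tested probesets. The Frzb probeset 1448424_at was tested only through its control values, which favours a difference, and requiring 100 in all 4 arrays left 4 such members of 23. The groups did not overlap for 16 of the 25 members (64%), against 56% of all tested probesets. The submitters' 2-fold rule took 0.791% of all tested probesets, and of the members only this same Frzb probeset, whose fluoxetine values lay under 100, so that 0 members reached 2-fold on values above the minimum. The median log2 difference, fluoxetine minus control, was 0.03 for the members and -0.04 for all tested probesets, and the median absolute difference was 0.14 and 0.12. An exact permutation test of 2 pools against 2 cannot give a p under 0.333. The moderated test of limma is not bound by this, but with 2 pools per group a member missing its threshold is not shown to be unaltered. The 95% intervals of limma, unadjusted, are given for most of the members described.

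Among secreted antagonists only Frzb and Dkk3 had tested probesets. All 4 of these were lower in both fluoxetine pools than in both control pools, at log2 differences of -1.01 to -0.16, and none passed the test. Of all 16938 tested probesets, 9937 were lower in fluoxetine pools, and 56% had groups that did not overlap in either direction. The -1.01 belongs to a Frzb probeset tested only through its control values. Frzb, also called sFRP3, is a decoy that binds Wnt proteins, and in mice it is made by dentate granule neurons and restrains adult neurogenesis. Its promoter window is shown because Frzb had the largest tested difference among the members, and that of Axin2 because Axin2 is the textbook transcriptional target of the pathway. Both come from RefSeq (GRCm38.p6), run from 250 bases before the start site to 50 after it, and are written 5′ to 3′ on the gene's strand: chr2:80447347-80447646 on the minus strand for Frzb and chr11:108920099-108920398 on the plus strand for Axin2. Capitals mark the core letters CTTTGA bound by Tcf and Lef proteins, searched on both strands, so that TCAAAG is the same motif read from the other strand.
Frzb: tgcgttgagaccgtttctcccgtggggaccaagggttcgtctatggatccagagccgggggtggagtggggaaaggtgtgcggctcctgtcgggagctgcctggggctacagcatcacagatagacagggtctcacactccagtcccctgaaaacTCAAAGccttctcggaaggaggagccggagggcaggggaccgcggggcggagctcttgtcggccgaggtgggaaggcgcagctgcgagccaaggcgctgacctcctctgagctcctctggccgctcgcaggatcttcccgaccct
Axin2: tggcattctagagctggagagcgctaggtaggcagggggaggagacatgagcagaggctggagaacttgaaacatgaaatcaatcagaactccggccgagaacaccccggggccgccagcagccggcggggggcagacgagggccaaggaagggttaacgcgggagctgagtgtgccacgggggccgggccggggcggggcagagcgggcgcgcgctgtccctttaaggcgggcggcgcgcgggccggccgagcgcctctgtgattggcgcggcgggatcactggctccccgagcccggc
The Frzb window held 1 match, beginning 95 bases before the start site, and the Axin2 window held none of these letters. Of the 53 member genes 36 had a window, and 7 of their 44 windows held the motif (15.9%), against 16% of all 32851 windows. A match describes the letters only, and the share among members was close to that among all genes.

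The first Frzb probeset (1416658_at) read 227 and 193 in fluoxetine pools 1 and 2, against 422 and 284 in control pools 1 and 2. Both fluoxetine pools lay below both control pools, and the control pools stood further apart than the fluoxetine pools. The log2 difference was -0.73 ± 0.21 (SE, n = 2 pools per group, 95% interval -1.27 to -0.18), and it did not pass (adjusted p = 0.148).

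The second Frzb probeset (1448424_at) read 93.0 and 63.6 in fluoxetine pools 1 and 2, against 214 and 111 in control pools 1 and 2. The 4 arrays stood in the same order as at the first probeset, with control pool 1 highest and fluoxetine pool 2 lowest. Neither fluoxetine pool reached 100, so the probeset was tested only through its control values and its fold is a bound, at least 1.54-fold lower in fluoxetine pools. The fitted log2 difference was -1.01 ± 0.36 (95% interval -1.94 to -0.07, adjusted p = 0.201).

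The size of the Frzb difference rested on control pool 1: without it the log2 differences were -0.44 and -0.53 at the probesets 1416658_at and 1448424_at (adjusted p = 0.282 and 0.417). The summed intensity of the 9 dentate granule markers ran in the same order over the arrays, at 8737 and 8719 in fluoxetine pools 1 and 2, against 11957 and 10456 in control pools 1 and 2. These markers did not move as one, since 4 of the 8 tested were higher in fluoxetine pools and the median log2 difference was -0.09, and Dsp, a desmosomal plaque protein, was the only one of them to pass, falling by 1.79 on the log2 scale (adjusted p = 0.0495). The Dsp call sat at the threshold and was lost under 10 of 16 alternatives, among them a minimum of 50 (adjusted p = 0.0857), no minimum and leaving out any 1 array, over a range of 0.0238 to 0.243. Frzb was also higher in pool 1 than in pool 2 of each group, and so was the sum of the 9 choroid plexus markers, at 51610 and 4551 in fluoxetine pools 1 and 2 and 38162 and 2138 in control pools 1 and 2, nearly all of it transthyretin (Ttr). The part of either marker list in the Frzb values was not tested.

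Dkk3 is a divergent member of the Dickkopf family, which in contrast to Dkk1 is not an established blocker of the co-receptors. Its probeset 1448669_at read 1532 and 1451 in fluoxetine pools 1 and 2, against 1872 and 1741 in control pools 1 and 2. The fluoxetine values lay below the control values without overlap, at a log2 difference of -0.28 ± 0.08 (95% interval -0.48 to -0.08, adjusted p = 0.140). The other probeset, 1417312_at, read 1627 and 1532 in fluoxetine pools and 1769 and 1758 in control pools, which is a log2 difference of -0.16 ± 0.07 (adjusted p = 0.266). The 14 untested antagonist probesets stayed under 100 in all arrays, those of Dkk1, Dkk2, Dkk4 and Sfrp2 under 10 throughout, and those of Sfrp4, Sfrp5 and Wif1 under 13. The Sfrp1 probeset 1448395_at had 16.1 and 12.9 in fluoxetine pools and 15.3 and 26.7 in control pools, with the groups overlapping. Sfrp1 1428136_at also overlapped, at 20.7 and 23.4 in fluoxetine pools and 21.6 and 21.8 in control pools. At 1438620_x_at fluoxetine pools were higher without overlap, at 13.95 and 16.9 against 13.81 and 13.88. The Sfrp1 probesets 1416594_at and 1460187_at were under 10 in all arrays.

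Of the tested receptor probesets, that of Lrp6, the co-receptor that becomes phosphorylated on Wnt binding, differed most. Lrp6 (1428500_at) read 303 and 279 in fluoxetine pools 1 and 2, against 419 and 349 in control pools 1 and 2. Both fluoxetine pools lay below both control pools, at a log2 difference of -0.40 ± 0.11 (95% interval -0.69 to -0.10), which did not pass (adjusted p = 0.147). On leaving out an array the difference ran from -0.53 to -0.26. The second Lrp6 probeset was not tested, and its values of 59.2 and 60.4 in fluoxetine pools and 67.3 and 58.8 in control pools overlapped. The other co-receptor gene, Lrp5, was under 10 in every array.

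The Frizzled genes are the Wnt receptors proper, and Fzd1, Fzd3 and Fzd4 had 1 tested probeset each. Fzd1 (1437284_at) read 120.1 and 120.2 in fluoxetine pools 1 and 2, against 125 and 161 in control pools 1 and 2, a log2 difference of -0.24 ± 0.13 (adjusted p = 0.358). The groups did not overlap, though the lower control pool was close to the fluoxetine values, and the log2 difference was -0.0584 without control pool 2 and -0.43 without control pool 1. The other Fzd1 probeset was under 10 in all arrays. Fzd3, a receptor needed for axon guidance in the developing brain, read 1463 and 1438 in fluoxetine pools and 1375 and 1410 in control pools (1434788_at). The log2 difference was 0.06 ± 0.07, with a 95% interval of -0.11 to 0.23 (adjusted p = 0.627). Fzd4, the receptor through which norrin acts on brain and retinal vessels, read 127 and 135 in fluoxetine pools and 133 and 141 in control pools (1419301_at), with overlapping groups and a log2 difference of -0.06 ± 0.07 (adjusted p = 0.650) that ran from -0.109 to -0.0174 on leaving out an array. The 5 other probesets of Fzd3 were untested and near the floor, none above 12 in any array. For Fzd4, the untested 1434756_at overlapped, at 38.1 and 50.8 in fluoxetine pools and 47.5 and 39.4 in control pools. The Fzd4 probeset 1449416_at was under 10 in all arrays.

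Among the ligands only Wnt4 and Wnt7b had a probeset that could be tested. Wnt4 (1450782_at), which in other tissues acts in kidney and gonad formation, read 157 and 138 in fluoxetine pools 1 and 2, against 110.5 and 161 in control pools 1 and 2. The control pools enclosed both fluoxetine values, and the log2 difference was 0.14 ± 0.20 (95% interval -0.37 to 0.65, adjusted p = 0.701). The other Wnt4 probeset, 1441687_at, was untested and higher in fluoxetine pools without overlap. It read 35.1 and 49.99 in fluoxetine pools and 31.2 and 30.9 in control pools. Wnt7b (1420892_at), a ligand that promotes dendrite growth in hippocampal neurons, read 155 and 120 in fluoxetine pools and 135.0 and 135.6 in control pools. Here the fluoxetine pools enclosed the control values, at a log2 difference of 0.01 ± 0.14 (95% interval -0.34 to 0.36, adjusted p = 0.978). The other Wnt7b probeset was untested and overlapped, at 46.4 and 35.2 in fluoxetine pools and 36.9 and 38.2 in control pools.

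**Figure D2:**
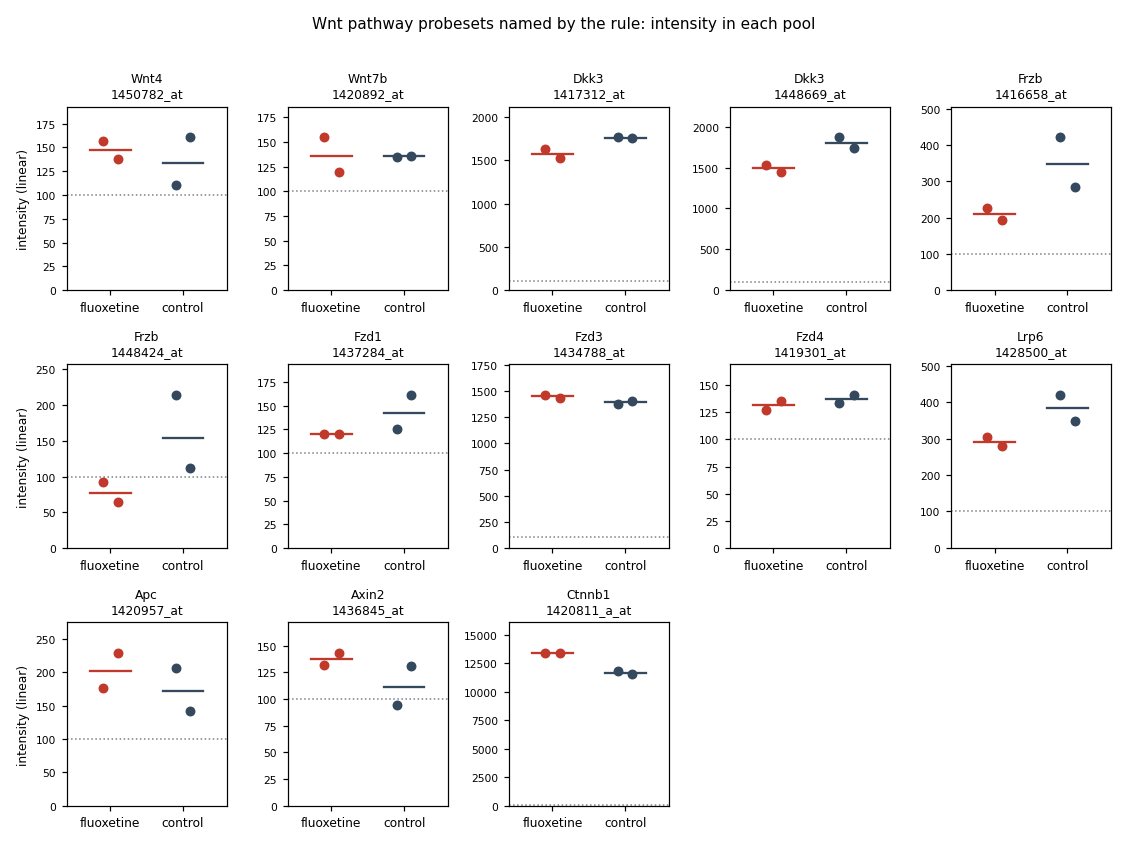
Intensity on a linear axis in each of the 2 fluoxetine pools (red, left) and 2 control pools (dark, right) for the 13 tested member probesets described by the rule for named genes; horizontal bars are geometric means and the dotted line is the minimum of 100. The Frzb, Dkk3 and Lrp6 values of fluoxetine pools lie below those of control pools, the Ctnnb1 values above them, and the Wnt4 and Wnt7b values overlap.

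The cytoplasmic components had 15 tested probesets, of which 11 were higher and 4 lower in fluoxetine pools, and none passed. Their log2 differences ran from -0.19 to 0.31 with a median of 0.06. Of all tested probesets 41.3% were higher in fluoxetine pools. The 11 higher ones are not 11 genes, since they hold all 4 probesets of Apc and all 3 of Ctnnb1. Ctnnb1 encodes beta-catenin, the transducer of the canonical branch and a component of cadherin junctions. Its probeset 1420811_a_at read 13379 and 13430 in fluoxetine pools 1 and 2, against 11809 and 11587 in control pools 1 and 2. Both fluoxetine pools were higher than both control pools, and pools of a group differed little, at a log2 difference of 0.20 ± 0.06 (95% interval 0.03 to 0.36, adjusted p = 0.179). The other 2 Ctnnb1 probesets were also higher in fluoxetine pools without overlap, at log2 differences of 0.15 and 0.13.

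The destruction complex showed differences of similar size. Apc, the scaffold that holds beta-catenin in it, was higher in fluoxetine pools at all 4 of its probesets, at log2 differences of 0.05 to 0.23. The largest of these belonged to 1420957_at, at 177 and 229 in fluoxetine pools 1 and 2 and 207 and 142 in control pools 1 and 2. These groups overlapped and the error was as large as the difference (0.23 ± 0.22, adjusted p = 0.579). The other 3 Apc probesets had groups that did not overlap and smaller errors, with adjusted p of 0.322 to 0.665.

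Axin2 is a negative regulator that the pathway itself induces and is widely used as a readout of canonical signalling. It read 132 and 143 in fluoxetine pools 1 and 2, against 94.4 and 131 in control pools 1 and 2 (1436845_at). The groups did not overlap, but control pool 2 was within a few units of fluoxetine pool 1, and control pool 1 was under the minimum of 100. The log2 difference was 0.31 ± 0.17 (95% interval -0.14 to 0.75, adjusted p = 0.355), and without control pool 1 it was 0.07. The other Axin2 probeset was under 10 in all arrays.

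Gsk3b encodes the kinase that phosphorylates beta-catenin and is inhibited by lithium. Its 4 tested probesets did not share a direction, with log2 differences of -0.19 to 0.06. The one with the lowest p, 1437001_at, read 1961 and 2094 in fluoxetine pools and 2423 and 2196 in control pools (adjusted p = 0.276). The untested Gsk3b probesets were lower in fluoxetine pools without overlap. At 1439931_at the values were 64.6 and 57.2 in fluoxetine pools and 65.0 and 76.8 in control pools, so that the nearest pools almost touched. At 1439949_at they were 34.9 and 36.7 in fluoxetine pools and 37.2 and 40.7 in control pools. Dvl1, a Dishevelled protein, was at log2 differences of 0.03 and -0.09 at its 2 tested probesets, and Axin1, the constitutive scaffold, at 0.05. Dvl2 and Dvl3 had no tested probeset. Of the 6 member genes with more than 1 tested probeset, 4 had the same direction at all of them (Apc, Ctnnb1, Dkk3 and Frzb), and Dvl1 and Gsk3b did not.

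**Figure D3:**
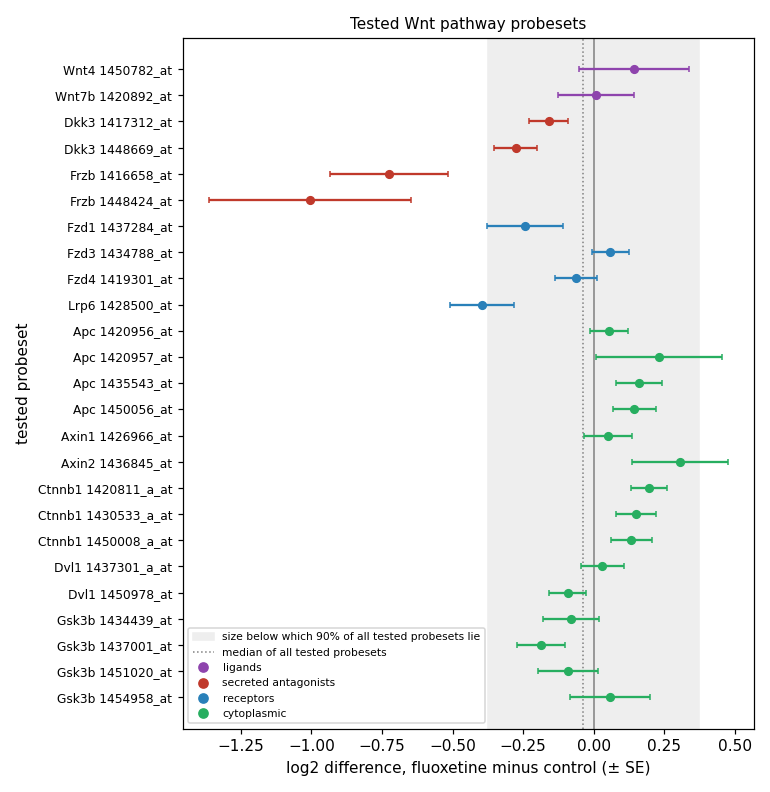
Log2 difference, fluoxetine minus control, with its limma standard error (bars) for the 25 tested member probesets, coloured by role. The shaded band, of ±0.38, holds 90% of all tested probesets, and beyond it lie the 2 Frzb probesets and Lrp6, all lower in fluoxetine pools.

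Among the 86 untested members the groups did not overlap for 38, where 56% of all tested probesets did not overlap. The share over all untested probesets was not counted. Of the 86 untested probesets 14 reached 50 in at least 1 array. Those described are given by their values alone, without a fold, since all 4 arrays lay under 100. GCRMA pulls such dim probesets towards a common floor. Wnt2 (1449425_at), a ligand that antidepressant treatments have been reported to raise in rat hippocampus, read 57.7 and 72.6 in fluoxetine pools 1 and 2, against 25.0 and 15.5 in control pools 1 and 2. Both fluoxetine pools were well above both control pools. Wnt9a (1436978_at) showed the opposite order, at 25.0 and 27.2 in fluoxetine pools 1 and 2 and 69.4 and 55.9 in control pools 1 and 2.

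Wnt5a, the main ligand of the non-canonical branch, read 58.4 and 60.9 in fluoxetine pools and 82.7 and 98.0 in control pools at 1448818_at. At 1436791_at it read 57.4 and 59.2 in fluoxetine pools and 69.8 and 74.1 in control pools. Both probesets were thus lower in the fluoxetine pools without overlap, while the other 2 Wnt5a probesets stayed under 10. Wnt7a (1423367_at), a ligand known for its part in synapse assembly, read 48.7 and 25.7 in fluoxetine pools and 72.3 and 63.0 in control pools, again without overlap. Wnt10a (1460657_at), which did not reach 50, was at 33.8 and 39.2 in fluoxetine pools and 20.3 and 17.7 in control pools.

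Fzd6 (1417301_at), a receptor of the planar polarity branch, read 93.4 and 79.6 in fluoxetine pools and 62.0 and 49.1 in control pools, and did not overlap either. Fzd7 (1450044_at), at 94.7 and 67.8 in fluoxetine pools and 79.7 and 67.0 in control pools, did overlap. Beside these dim receptor values, the summed intensity of the 8 endothelial and mural markers on the array was 4809 and 4652 in fluoxetine pools and 3553 and 3603 in control pools, with the defining markers Pecam1 and Kdr under 10 in every array. The part of vessel RNA in the Frizzled values was not tested.

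Of the nuclear factors, Tcf7l2 came nearest to the minimum. Its probeset 1429428_at read 95.2 and 90.7 in fluoxetine pools 1 and 2, against 76.0 and 59.8 in control pools 1 and 2, without overlap. Tcf7l2 is a well-known marker of the thalamus, which adjoins the hippocampus. The 9 thalamic markers on the list summed to 2273 and 2251 in fluoxetine pools and 2280 and 2402 in control pools. These markers did not move as one: 4 of the 5 tested were higher in fluoxetine pools, and Gbx2 was under 10 in every array. Prkcd read 174 and 135 in fluoxetine pools and 119 and 91.5 in control pools. Slc17a6, the tested marker that was lower, read 676 and 613 in fluoxetine pools and 797 and 1004 in control pools. The part of thalamic RNA in the Tcf7l2 values was not tested. Tcf7l1 (1450117_at) read 73.2 and 63.2 in fluoxetine pools and 59.8 and 63.1 in control pools, so that the nearest pools almost touched, and its other probeset overlapped. Both Lef1 probesets, for the member of the Tcf and Lef family found in newborn neurons and lymphocytes, lay under 13 in all arrays.

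**Figure D4:**
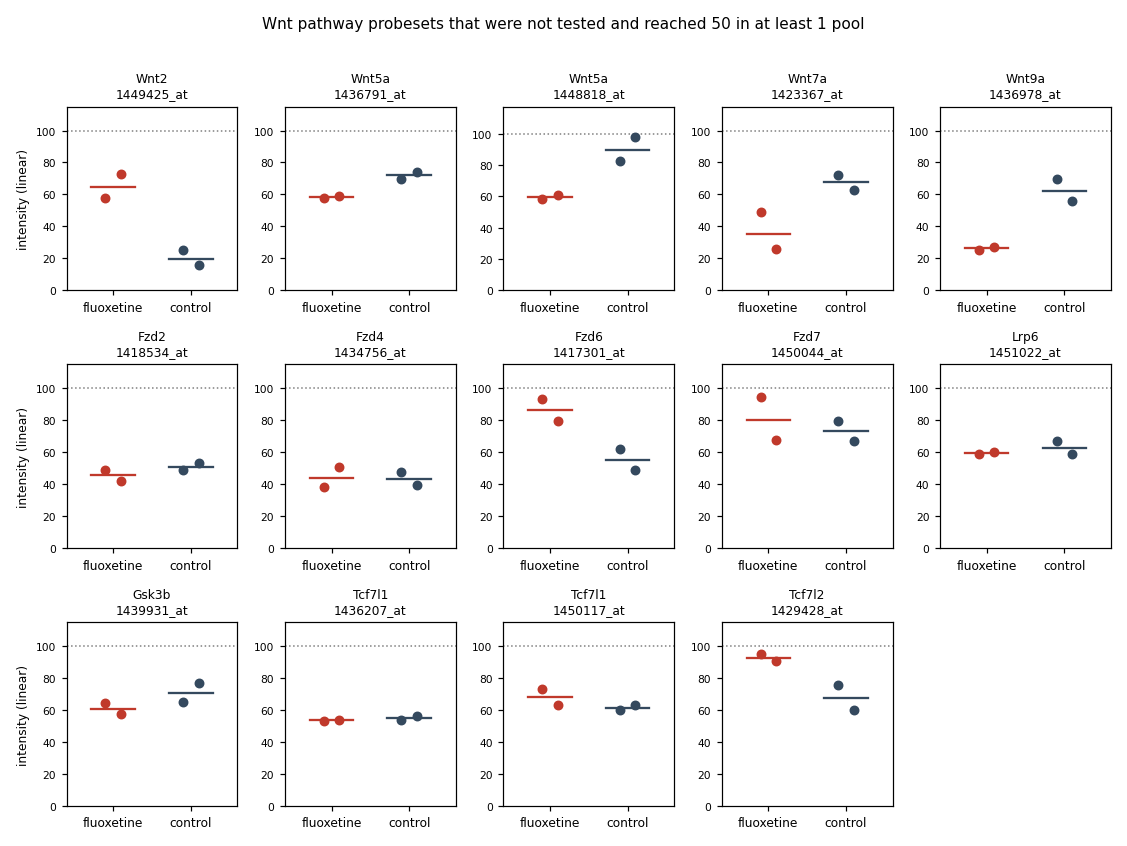
Intensity on a linear axis in each fluoxetine pool (red, left) and control pool (dark, right) for the 14 untested member probesets that reached 50 in at least 1 pool; bars are geometric means and the dotted line is the minimum of 100. Wnt2, Fzd6 and Tcf7l2 lie higher in fluoxetine pools and Wnt9a, Wnt5a and Wnt7a lower, with no value reaching 100.

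When the minimum was lowered to 50 in at least 2 arrays, 37 members entered the test and 0 passed. Wnt2, Wnt7a and Wnt9a, 3 of these, entered only through the group in which they were higher, so their p is not given. Wnt5a (1448818_at), which reached 50 in all 4 arrays, had an adjusted p of 0.108. With no minimum, 0 members passed by limma and 13 of all 111 had an unadjusted p under 0.05 (11.7%), against 12.0% of all probesets. The remaining ligand genes gave no usable signal: every probeset of Wnt1, Wnt2b, Wnt3a, Wnt5b, Wnt8a, Wnt8b, Wnt9b, Wnt10b, Wnt11 and Wnt16 was under 10 in all arrays, and Wnt3 and Wnt6 stayed under 13. Among receptors Fzd5, Fzd9, Fzd10 and the transcript Fzd10os were under 10 in all arrays as well, Fzd8 was under 12, and the Fzd2 probesets had means of at most 51.0 in either group.

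A second list of 76 genes held other parts of the pathway, such as co-receptors, R-spondins, kinases, transcriptional partners, the planar polarity branch and common targets. Of these 49 had a tested probeset, and at the probeset with the highest mean 0 passed in either direction, against 1.86% of all genes so counted. There were 19 higher and 30 lower in fluoxetine pools, where 43.5% of all genes so counted were higher. The median log2 difference was -0.04, and 11 had an unadjusted p under 0.05 (22.4%), against 22.0% of all genes so counted. Over all 90 tested probesets of the list 1 passed (1.11%), against 1.72% of all tested probesets. It belonged to Bcl9, which bridges beta-catenin to Pygopus. Bcl9 fell at 1455565_at, with 142 and 134 in fluoxetine pools 1 and 2 against 210.9 and 210.7 in control pools 1 and 2. The log2 difference was -0.61 ± 0.07 (adjusted p = 0.0401), and the pools of each group were close together. The call was lost under 7 of 16 alternatives, among them a minimum of 50 (adjusted p = 0.0668), no minimum and leaving out any 1 array, over a range of 0.0308 to 0.197. The other tested Bcl9 probeset, 1451574_at, read 166 and 184 in fluoxetine pools and 185 and 199 in control pools, a log2 difference of -0.13 ± 0.09 (adjusted p = 0.428).

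The largest differences at the representative probesets of this list were those of Tle2, Apcdd1 and Rspo2. Tle2, a Groucho corepressor of Tcf proteins, read 91.7 and 74.8 in fluoxetine pools and 131 and 149 in control pools. This is at least 1.40-fold lower against the minimum of 100, and it did not pass (adjusted p = 0.0707). The Tle2 probeset was tested only through its control values, which favours a difference. Apcdd1, a membrane inhibitor of Wnt signalling that brain endothelial cells express, read 2302 and 2764 in fluoxetine pools and 1740 and 1702 in control pools at 1454822_x_at. Its log2 difference was 0.55 ± 0.11 (adjusted p = 0.0837), and its other 2 tested probesets were also higher, at 0.46 and 0.28. Rspo2, an R-spondin that amplifies Wnt signals by clearing the ligases Znrf3 and Rnf43, read 828 and 834 in fluoxetine pools and 510 and 739 in control pools, a log2 difference of 0.44 ± 0.18 (adjusted p = 0.255).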

How the data were processed

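Each value deposited by the authors is a linear intensity of 1 probeset on 1 array. Per the labels' design text, ArrayAssist was used to apply GCRMA, which the submitters' processing notes also name, without a version. Values were taken to log2 without a pseudocount. Probesets were named from the platform annotation (34945 with 1 symbol, 932 with several, 9160 with none, 64 Affymetrix controls left out). The gene numbers of all 53 member genes matched the RefSeq gene table with 0 symbols changed. Groups and pool numbers come from the sample titles.

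Fluoxetine pools were compared with control pools by limma 3.58.1 in R 4.3.3 (lmFit, eBayes, no covariate, two-sided), fitted on all 16938 probesets that reached 100 in at least 2 arrays, with Benjamini-Hochberg adjustment over all of them and a threshold of 0.05. Means are geometric, and n counts pools. A fold is a bound against 100 where all arrays of 1 group were lower. The procedure was tested on simulated data. The precision is limited by the number of arrays.

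The members and lists were chosen with earlier results of these data known. Named are members that pass, the 3 largest differences and the probeset with the highest mean in each of the 5 roles; of the second list, called genes and the 3 largest differences. The dim probesets described below the minimum, Dsp and the Bcl9 probeset were chosen after their values were seen. Alternatives were other intensity minimums, quantile normalization, median centring, a pseudocount of 32, a floor of 100, dropping probesets whose ID marks several possible transcripts, other spread estimates, other thresholds, the pool number as a block, and leaving out each array.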

Additional observations from a re-analysis of the deposited data

How the results depend on the processing

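No member passed by limma under any alternative with a test, and none of the 13 described member probesets changed direction except on leaving out an array, where the log2 difference ran from -0.13 to 0.41 for Wnt4 (1450782_at), from -0.0395 to 0.502 for Apc (1420957_at) and from -0.18 to 0.19 for Wnt7b (1420892_at). Leaving out 1 array moved other differences by over 1.5 times, as given with Frzb, Lrp6, Fzd1, Fzd4 and Axin2. The submitters' 2-fold rule took 1 member, a Frzb probeset under 100 in both fluoxetine pools, and 134 probesets in all. Against 291 probesets called over the whole table, there were 0 with no intensity minimum, 16 with a minimum of 50, 193 without probesets that can match several transcripts (fewer were tested), 532 with eBayes trend and robust settings and 1145 at an adjusted p under 0.10. Without any 1 array, where the lone pool is assumed to vary like the other group, the count was 0, while 2657 to 3515 probesets had an unadjusted p under 0.05. Taking the pool number as a replicate block gave 9 calls, with 0 members among them, and Bcl9 (1455565_at) and Dsp, added after seeing the data, were then at adjusted p of 0.111 and 0.0624; same-numbered pools share only a number, and their deviations from the group means correlated at 0.14 over the tested probesets. The members' median log2 difference of 0.03 became -0.0632 without probesets that can match several transcripts (21 members), and ran from -0.0161 to 0.0268 on leaving out an array. Of the second list's genes, 0 passed, 1 with eBayes trend and robust settings and 2 at an adjusted p under 0.10; these counts were added after seeing the data. Why the counts differ was not tested beyond these constructions. The share of probesets that reached the test was smallest for the nuclear factors (0 of 8) and the ligands (2 of 32).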
